A study of Homo sapiens with 16 samples.

Results

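The E2F and DP transcription factors are the DNA-binding pair at the end of the retinoblastoma pathway, and the 10 genes described here are E2F1 to E2F8, TFDP1 and TFDP2. They were chosen as every listed gene symbol of the family found in the deposited nascent transcription tables. All 10 of the 10 symbols were found, with 1 RefSeq transcript each among the 10304 transcripts of the tables. The choice went by gene symbol and not by the values of these genes, although earlier results of these data were known.

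In textbook accounts, an E2F protein binds DNA together with a DP partner (the products of TFDP1 and TFDP2), and pocket proteins such as RB hold the pair in check until cyclin-dependent kinases release it at the entry into S phase. E2F1, E2F2 and E2F3 are known as activators, E2F4 and E2F5 as partners of the pocket proteins p130 and p107 in repression. E2F6 binds no pocket protein and works with Polycomb proteins, and E2F7 and E2F8 are atypical repressors that bind DNA without a DP partner.

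The data are precision nuclear run-on sequencing (PRO-seq) reads, which map RNA polymerase engaged in transcription, from Kasumi-1, an acute myeloid leukaemia line with the RUNX1-RUNX1T1 fusion. The cells carried FKBP12F36V, a domain that dTAG compounds direct to degradation, on both alleles of endogenous SMARCA5, the ISWI ATPase that slides and spaces nucleosomes. Treated cells had 500 nM dTAG-47 for 2 h (3 libraries), 6 h (4 libraries) or 24 h (2 libraries), and untreated cells of the same tagged line are called 0 h (5 libraries). Parental Kasumi-1 cells with untagged SMARCA5 (2 samples) were not analysed here. A 0 h library received no compound, so effects of dTAG-47 itself and of SMARCA5 loss cannot be told apart.

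The labels call the libraries biological replicates without naming separate cultures, so p-values measure the spread between these libraries. Codes in the column names place them in 3 sets, called runs here, although the labels do not say what the codes mean. Run 1 holds 2 untreated libraries and 1 at 2 h, run 2 holds 2 libraries at each of the 4 times, and run 3 holds 1 untreated library and 2 at 6 h. Totals were 30066879 to 34209362 gene-body reads in run 1, 11182894 to 16138846 in run 2 and 17526557 to 26130746 in run 3. Both untreated libraries of run 1 differed from those of runs 2 and 3 in several members, and member calls that they change are given with and without them. Leaving these libraries out was not planned and followed from their values, so results without them are no independent support. Without them the 2 h library of run 1 has no untreated library in its run. The run term then leaves the 2 h change to the 2 h libraries of run 2. The omission therefore does not tell which libraries of run 1 stood apart. The defining genes RUNX1, KIT, CD34, CD33, MPO and SPI1 had 25.4 to 4391 CPM (gene-body reads scaled to library size) in every library. CEBPA had 3.91 to 9.45 CPM and the erythroid gene KLF1 8.74 to 30.7 CPM, whose part in the results was not tested. Gene-body reads of SMARCA5 averaged 94.2 ± 9.0 (SD, n = 3) CPM at 2 h and 113 ± 20.6 (SD, n = 5) at 0 h. SMARCA5 was called at none of the 3 times (adjusted p = 0.0779, 0.519 and 0.408 at 2, 6 and 24 h), and since dTAG acts on the protein, these reads do not check its loss.

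The promoters of 4 members hold a classical E2F site letter for letter, and they are shown as a sequence feature that the choice of members did not use. These 4 did not change alike, as the values below show. The search covered 4 forms of 8 bases on both strands, TTTCCCGC, TTTCGCGC, TTTGCCGC and TTTGGCGC, in the 250 bases before the transcription start. The sequences are RefSeq's, in the build GRCh38.p14, which differs from the hg19 build of the read tables. At least 1 form was present before 979 of 35116 starts in the table, or 2.79%, and before 4 of the 11 starts of members. The capitals mark the E2F forms, and each line gives the strand of the gene, read 5′ to 3′.
E2F1, chr20:33686386-33686635, minus strand: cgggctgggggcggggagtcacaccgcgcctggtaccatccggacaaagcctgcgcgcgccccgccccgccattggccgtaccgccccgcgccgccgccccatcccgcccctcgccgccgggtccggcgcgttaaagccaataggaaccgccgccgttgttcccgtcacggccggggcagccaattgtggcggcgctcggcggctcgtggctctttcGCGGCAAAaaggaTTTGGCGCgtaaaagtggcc
E2F2, chr1:23531234-23531483, minus strand: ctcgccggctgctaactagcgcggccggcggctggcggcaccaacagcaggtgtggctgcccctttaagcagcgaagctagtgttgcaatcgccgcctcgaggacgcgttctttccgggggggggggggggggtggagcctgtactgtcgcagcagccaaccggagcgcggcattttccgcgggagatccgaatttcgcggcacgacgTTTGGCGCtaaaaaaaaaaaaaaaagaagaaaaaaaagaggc
E2F3 (the upstream of 2 starts), chr6:20401629-20401878, plus strand: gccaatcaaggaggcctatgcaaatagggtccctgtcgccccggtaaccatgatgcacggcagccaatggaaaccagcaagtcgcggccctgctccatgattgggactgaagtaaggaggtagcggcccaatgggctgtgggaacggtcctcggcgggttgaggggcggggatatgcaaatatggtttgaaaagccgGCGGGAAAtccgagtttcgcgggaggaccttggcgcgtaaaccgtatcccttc
TFDP1, chr13:113584503-113584752, plus strand: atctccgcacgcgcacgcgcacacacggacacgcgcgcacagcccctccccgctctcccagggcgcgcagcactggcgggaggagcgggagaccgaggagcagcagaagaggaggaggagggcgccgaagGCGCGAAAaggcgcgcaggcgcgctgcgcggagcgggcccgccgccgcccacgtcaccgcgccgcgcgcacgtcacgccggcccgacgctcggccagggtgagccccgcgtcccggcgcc
E2F7, chr12:77065570-77065819, minus strand: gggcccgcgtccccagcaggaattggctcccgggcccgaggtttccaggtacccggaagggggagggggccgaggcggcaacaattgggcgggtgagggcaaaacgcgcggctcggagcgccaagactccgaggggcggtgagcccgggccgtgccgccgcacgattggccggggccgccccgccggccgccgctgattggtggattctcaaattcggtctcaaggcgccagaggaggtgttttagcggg

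In E2F1 the forms lie at bases -33 to -26 and -20 to -13 from the start, in E2F2 at -42 to -35, in E2F3 at -53 to -46 and in TFDP1 at -120 to -113. E2F7 is shown for contrast, since it rose at 6 h as E2F2 did and none of the 4 forms is in its window. Its window holds 4 copies of CCAAT, counting both strands, as does that of E2F3, and 11240 of all 35116 starts have at least 1 copy. A copy in E2F7 overlaps the GC box GGGCGG by 2 bases. The windows of E2F4 and E2F6 and the 3 of TFDP2 hold none of the 4 forms either, which says only that these letters are not there. E2F5 and E2F8 have no entry in the promoter table.

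The members differed in how heavily they were transcribed before treatment. Levels between genes are set here as gene-body CPM per kb of the span listed in the tables, in hg19 and averaged over the 5 untreated libraries. E2F1 (transcript NM_005225, chr20:32263292-32274210) had 6.19 ± 1.64 (SD, n = 5) CPM per kb and E2F3 (NM_001949, chr6:20402137-20493945) had 5.83 ± 0.72. TFDP1 (NR_026580, chr13:114239003-114295788) followed with 4.31 ± 0.34. These 3 lay above the upper quartile of all transcripts, 3.26 CPM per kb, in every untreated library.

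E2F4 (NM_001950, chr16:67226068-67232821) had 3.35 ± 0.58 CPM per kb and E2F6 (NR_003095, chr2:11584501-11606297) had 2.96 ± 0.36. E2F8 (NM_001256372, chr11:19245610-19263202) had 2.49 ± 0.39 and E2F2 (NM_004091, chr1:23832920-23857712) had 2.31 ± 0.40. Over the untreated libraries each of these 4 overlapped the next of the 4 in the order. E2F7 (NM_203394, chr12:77415026-77459360) had 1.66 ± 0.17 and TFDP2 (NM_001178138, chr3:141663270-141868386) had 1.57 ± 0.15, which overlapped each other and lay below E2F2 in every untreated library. E2F5 (NM_001083588, chr8:86089619-86126753) was the lowest member with 1.05 ± 0.25, under the median of 1.94 CPM per kb over all transcripts. E2F1 and E2F3 overlapped each other and every untreated value of theirs lay above the highest of TFDP1.

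**Figure D1:**
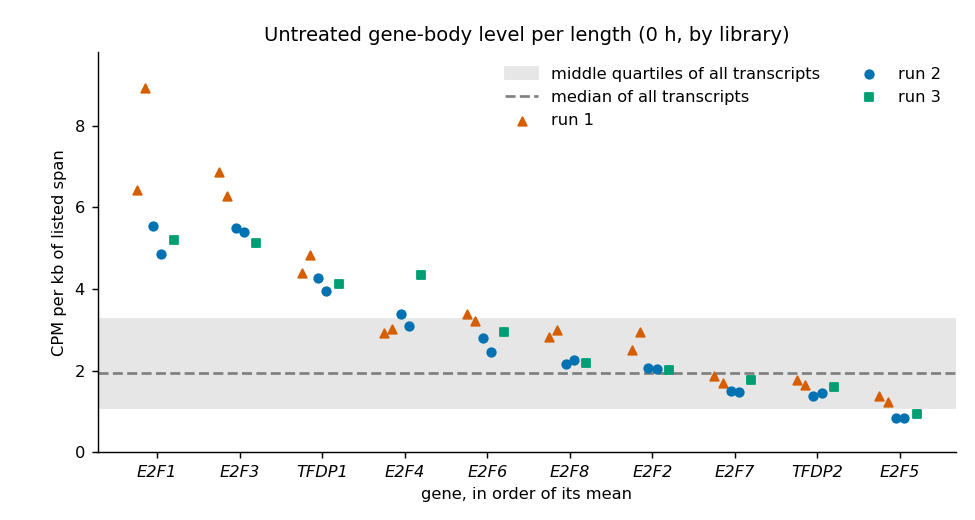
Gene-body CPM per kb of listed span of each member (points, coloured by run) in the 5 untreated libraries, with the median and middle quartiles of all transcripts. E2F1, E2F3 and TFDP1 lie above the quartile band and E2F5 is lowest, with a mean of 1.05.

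After treatment the family did not move as a block. In gene bodies 5 members were called at 2 h (1 rose, 4 fell), 6 at 6 h (2 rose, 4 fell) and 2 at 24 h (1 rose, 1 fell), by edgeR's quasi-likelihood test with a run term and an adjusted p under 0.05 over all transcripts. The same rule called 38.6% of all transcripts at 2 h, 26.8% at 6 h and 19.8% at 24 h. The 2 of 10 at 24 h is thus at the background, the 5 of 10 at 2 h near it and the 6 of 10 at 6 h above it. With 10 genes a few calls decide such a share, and single left-out libraries removed some of these calls, as given below. At 24 h 7 members had an unadjusted p under 0.05. The share of all transcripts under that threshold was not computed, here or below, so such counts have no background and are not read further. Without the untreated libraries of run 1, 5, 8 and 5 members were called at 2, 6 and 24 h, where the same rule called 24.7%, 37.6% and 29.6% of all transcripts. The median log2 change over the 10 members was -0.09, -0.03 and -0.01 at the 3 times, beside 0.01 at each time over all transcripts. The median size of the change, either way, was 0.21, 0.29 and 0.28, against 0.21, 0.17 and 0.19 over all transcripts. The 3 comparisons share their untreated libraries. In a bulk run-on, fewer transcribing cells and fewer polymerases per cell cannot be told apart.

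**Figure D2:**
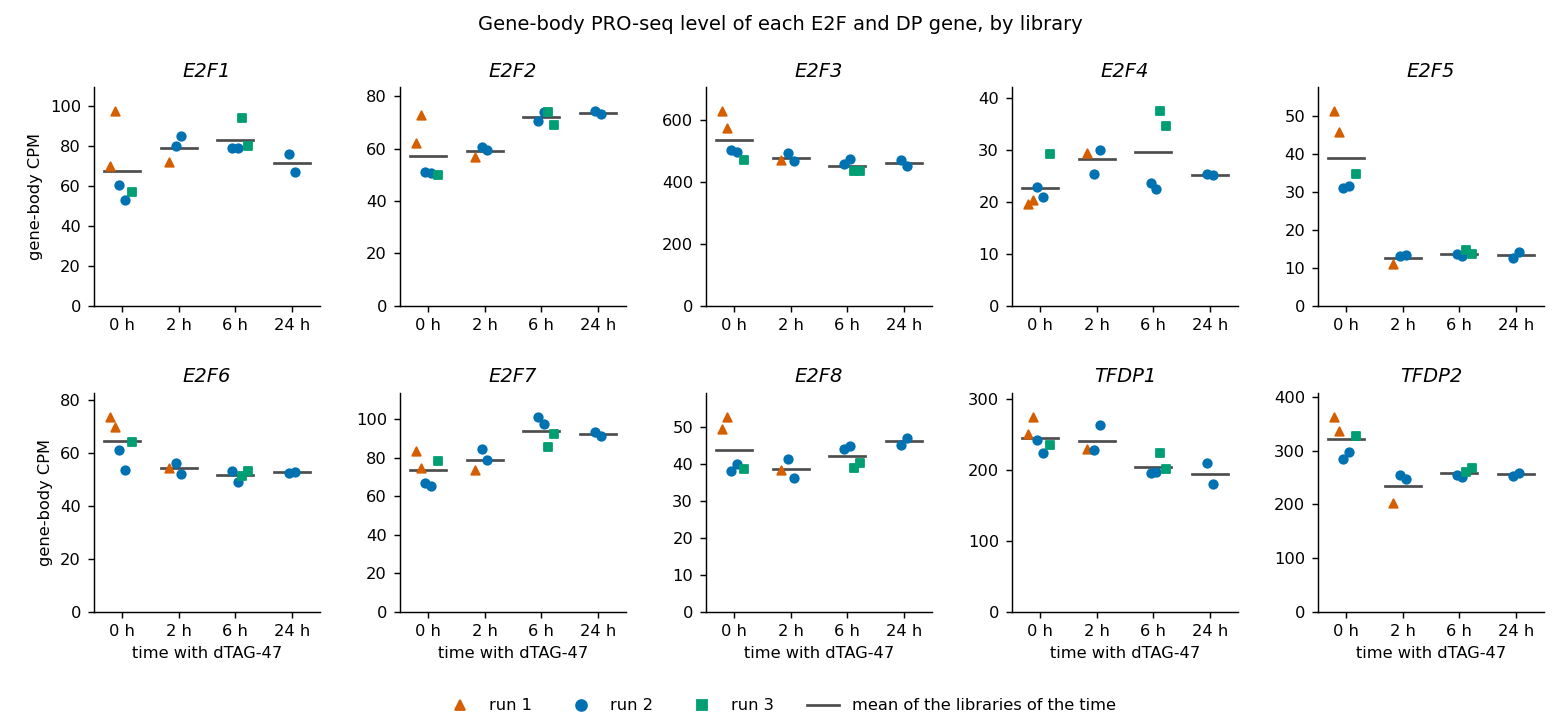
Gene-body CPM of each member in every library, by time with dTAG-47, coloured by run; grey lines are the means. In E2F5 all 9 treated libraries (10.98 to 14.54 CPM) lie below the 5 untreated ones (30.89 to 51.26), as they do in TFDP2. E2F1, E2F4 and E2F8 overlap the untreated values at every time, and the remaining members at some times only. The share of all transcripts whose groups separate was not computed.

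Among the activators, E2F2 was the member that rose late. Its gene body had 56.9 CPM in run 1 and 60.6 and 59.5 in run 2 at 2 h, against 62.0 and 72.9 in run 1, 51.2 and 50.8 in run 2 and 50.1 in run 3 at 0 h. At 6 h it had 70.5 and 74.1 CPM in run 2 and 74.2 and 69.2 in run 3, and at 24 h 74.5 and 73.1 in run 2. Both 24 h libraries lay above all untreated ones, each 6 h library above at least 4 of the 5, and the 2 h libraries among them. For E2F2 the log2 change was 0.05 ± 0.09 (SE, adjusted p = 0.678) at 2 h, 0.45 ± 0.10 (adjusted p = 0.0047) at 6 h and 0.45 ± 0.11 (adjusted p = 0.0156) at 24 h. Within runs the 6 h change was 0.50 in run 2 and 0.52 in run 3, and the 24 h change in run 2 was 0.53. The call at 24 h was lost without any of 3 libraries, either 24 h library or the second untreated library of run 2 (adjusted p up to 0.111), and without a run term (0.36, adjusted p = 0.0835). Without the untreated libraries of run 1 E2F2 was called at 2 h too, with 0.24 (adjusted p = 0.0203).

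E2F1, the activator best known for driving S phase genes, was called at no time when all libraries were used. It had 71.9 CPM in run 1 and 79.8 and 85.1 in run 2 at 2 h, against 70.1 and 97.5 in run 1, 60.4 and 53.1 in run 2 and 56.8 in run 3 at 0 h. At 6 h the values were 78.8 and 79.0 CPM in run 2 and 93.9 and 79.8 in run 3, and at 24 h 75.9 and 67.1 in run 2. In runs 2 and 3 every treated library lay above the untreated ones of its run, while in run 1 the 2 h library lay between them. For E2F1 the log2 change was 0.27 ± 0.15 (SE, adjusted p = 0.162) at 2 h, 0.43 ± 0.15 (0.0524) at 6 h and 0.22 ± 0.18 (0.419) at 24 h, with adjusted p in brackets. With the untreated libraries of run 1 omitted, the same test gave 0.57 (adjusted p = 0.00143), 0.53 (2.7e-04) and 0.36 (0.0138). That omission was not planned, and those libraries had the highest untreated values of E2F1, so this is no independent support for a rise. In the authors' deposited table E2F1 had an adjusted p of 0.0208 at 6 h. The gene of NECAB3 ends 1028 bases from the listed span of E2F1 and was called at 2 h, with a log2 change of 0.45 (adjusted p = 0.025). The strand that was counted is not given in the sources used here.

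E2F3, the third activator and the one with the longest gene of the 3, changed little. It had 468 to 493 CPM at 2 h, 436 to 476 at 6 h and 451 to 471 at 24 h, against 472 to 630 at 0 h. The 24 h libraries lay below all untreated ones, and at 2 and 6 h the groups overlapped. The log2 change was -0.17 ± 0.06 (SE, adjusted p = 0.0423) at 2 h, -0.14 (adjusted p = 0.106) at 6 h and -0.17 (adjusted p = 0.125) at 24 h. The 2 h call was lost when any of 12 single libraries was left out and without a run term (adjusted p = 0.208), and without the untreated libraries of run 1 the change was -0.06 (adjusted p = 0.357) at 2 h, while that at 6 h was called with -0.10 (adjusted p = 0.0386).

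Among the repressor E2Fs, E2F5 had by far the largest change of the family, in every run and at every time. Its gene body had 51.3 and 45.7 CPM in run 1, 30.9 and 31.6 in run 2 and 34.6 in run 3 at 0 h. It had 10.98 CPM in run 1 and 13.1 and 13.2 in run 2 at 2 h, 13.6 and 13.05 in run 2 and 14.5 and 13.6 in run 3 at 6 h, and 12.6 and 14.2 in run 2 at 24 h. No treated library reached the level of an untreated one, and the 9 treated libraries lay close together whichever the time.

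The log2 change of E2F5 was -1.60 ± 0.15 (SE, adjusted p = 2.9e-05) at 2 h, -1.36 ± 0.15 (4.3e-05) at 6 h and -1.38 ± 0.19 (4.3e-04) at 24 h, with adjusted p in brackets, or 0.329, 0.389 and 0.385 of the untreated level. Within runs the change at 2 h was -2.14 in run 1 and -1.25 in run 2, at 6 h -1.23 in run 2 and -1.30 in run 3, and at 24 h -1.22 in run 2. At 2 h the larger fall was the one within run 1. Without the untreated libraries of run 1 the change was -1.26 (adjusted p = 2.6e-05), where the 2 h libraries that count are those of run 2. E2F5 fell under every one of the 24 alternatives at each time. Its log2 change ranged from -1.71 to -1.25 at 2 h, -1.51 to -1.23 at 6 h and -1.54 to -1.22 at 24 h. The last bases of its listed span overlap C8orf59 (chr8:86126288-86132643), which was not called at 2 h (-0.08, adjusted p = 0.476) and fell at 6 h (-0.28, adjusted p = 0.0395) and 24 h (-0.51, adjusted p = 0.009). The neighbour on the other side, LRRCC1, ends 31305 bases away and was not called (adjusted p from 0.236 to 0.917).

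E2F4, the other pocket protein partner, had 29.5 CPM in run 1 and 25.5 and 30.0 in run 2 at 2 h, against 19.7 and 20.4 in run 1, 22.9 and 20.9 in run 2 and 29.3 in run 3 at 0 h. Within runs 1 and 2 the 2 h libraries lay above the untreated ones, and the single untreated library of run 3 was as high as they were. The log2 change at 2 h was 0.45 ± 0.09 (SE, adjusted p = 0.00225), with 0.56 within run 1 and 0.34 within run 2. It was 0.19 (adjusted p = 0.147) at 6 h and 0.28 (adjusted p = 0.099) at 24 h. The call at 2 h was lost without a run term, with an adjusted p of 0.219, and held when any single library was left out. ELMO3 lies 207 bases from the listed span and was not called at 2 h (0.33, adjusted p = 0.196).

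E2F6, the E2F of the Polycomb complex PRC1.6, had 52.0 to 56.4 CPM at 2 h, 49.2 to 53.2 at 6 h and 52.6 to 52.8 at 24 h, against 53.7 to 73.9 at 0 h. The 6 and 24 h libraries lay below every untreated one. Against 0 h the log2 change was -0.22 ± 0.08 (SE, adjusted p = 0.0431) at 2 h, -0.26 ± 0.08 (adjusted p = 0.0307) at 6 h and -0.20 ± 0.10 (adjusted p = 0.17) at 24 h. At 2 h the change was -0.40 within run 1 and -0.08 within run 2. That call was lost without a run term (adjusted p = 0.0888) and when any of 12 single libraries was left out, and the 6 h call when any of 6 was. Without the untreated libraries of run 1 the 6 h change was -0.22 (adjusted p = 0.0191) and the 2 h change -0.11 (adjusted p = 0.353).

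The atypical repressors E2F7 and E2F8 are known to act together at the same promoters, and here only E2F7 was called; a difference between them was not tested. E2F7 had 73.6 CPM in run 1 and 84.6 and 78.8 in run 2 at 2 h, against 83.3 and 74.8 in run 1, 67.0 and 65.3 in run 2 and 78.3 in run 3 at 0 h. It had 101 and 97.5 CPM in run 2 and 85.5 and 92.2 in run 3 at 6 h, and 93.3 and 91.5 in run 2 at 24 h. All 6 and 24 h libraries lay above every untreated one. For E2F7 the log2 change was 0.09 (adjusted p = 0.443) at 2 h, 0.38 ± 0.09 (SE, adjusted p = 0.0094) at 6 h and 0.34 ± 0.11 (adjusted p = 0.0506) at 24 h. The 6 h change was 0.59 within run 2 and 0.18 within run 3. In the authors' deposited table E2F7 had an adjusted p of 0.0345 at 24 h, and without the untreated libraries of run 1 edgeR gave 0.39 (adjusted p = 0.00943).

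E2F8 had 36.2 to 41.3 CPM at 2 h, 39.0 to 44.8 at 6 h and 45.2 to 47.1 at 24 h, against 38.2 to 52.9 at 0 h. The groups overlapped at all 3 times. The log2 change was -0.19 (adjusted p = 0.114) at 2 h, 0.08 (adjusted p = 0.558) at 6 h and 0.15 (adjusted p = 0.369) at 24 h.

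The genes of the DP partners both fell, TFDP2 at 2 and 6 h and TFDP1 at 6 h. TFDP2 had 364 and 337 CPM in run 1, 285 and 298 in run 2 and 327 in run 3 at 0 h. It had 203 CPM in run 1 and 255 and 247 in run 2 at 2 h, 255 and 252 in run 2 and 260.1 and 268 in run 3 at 6 h, and 254 and 259 in run 2 at 24 h. As in E2F5, no treated library reached an untreated one. For TFDP2 the log2 change was -0.44 ± 0.09 (SE, adjusted p = 0.00254) at 2 h, -0.31 ± 0.09 (adjusted p = 0.0194) at 6 h and -0.30 ± 0.11 (adjusted p = 0.0705) at 24 h. Within runs it was -0.79 in run 1 and -0.21 in run 2 at 2 h, -0.20 in run 2 and -0.31 in run 3 at 6 h, and -0.18 in run 2 at 24 h. Without the untreated libraries of run 1 the fitted changes were -0.23, -0.24 and -0.20, with adjusted p of 0.00599, 6.1e-04 and 0.00954. The 6 h call was lost without the untreated library of run 3 or either 6 h library of run 2 (adjusted p up to 0.0869).

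TFDP1 had 228 to 263 CPM at 2 h, 195 to 224 at 6 h and 179 to 210 at 24 h, against 224 to 275 at 0 h. The 24 h libraries lay below all untreated ones, and 1 of the 4 libraries at 6 h lay at the lowest untreated value. The log2 change was -0.01 (adjusted p = 0.917) at 2 h, -0.24 ± 0.08 (SE, adjusted p = 0.0452) at 6 h and -0.29 ± 0.10 (adjusted p = 0.0605) at 24 h. In the authors' deposited table TFDP1 had an adjusted p of 0.041 at 24 h. The 6 h call was lost when any of 5 single libraries was left out, with adjusted p up to 0.153. TFDP1 was called at 6 h without the untreated libraries of run 1, with -0.20 (adjusted p = 0.03415).

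**Figure D3:**
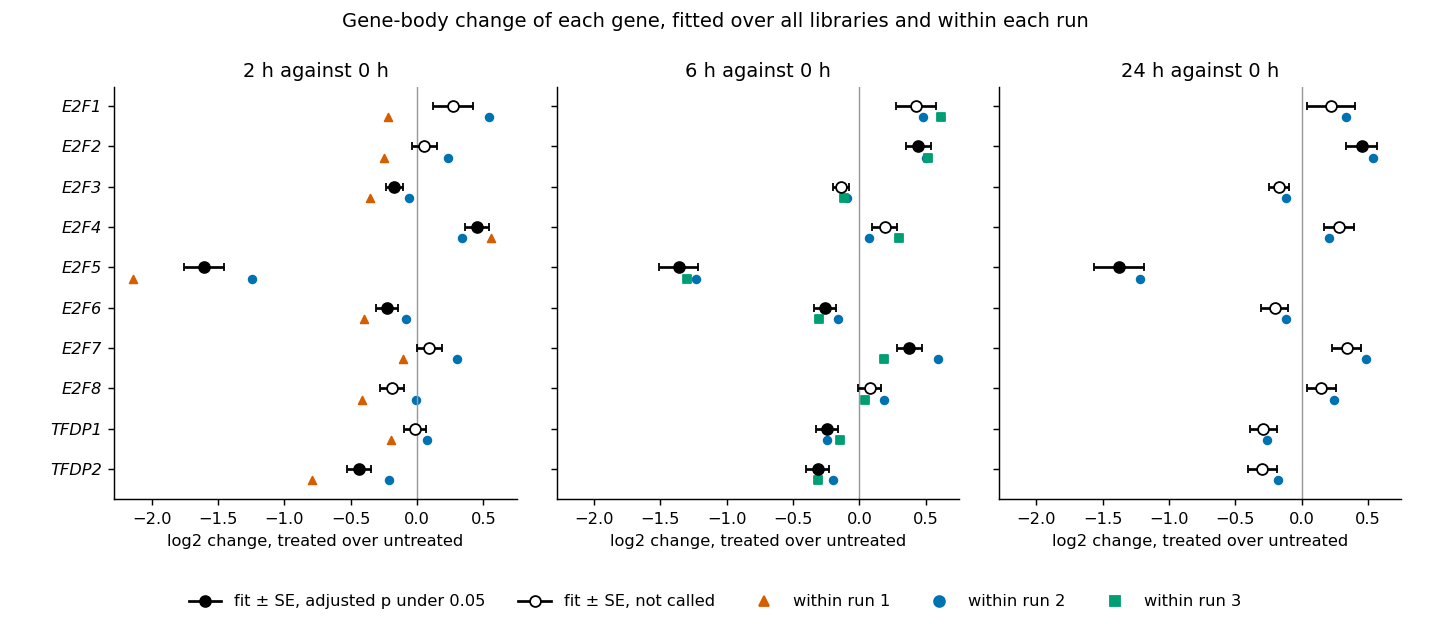
Log2 change of gene-body reads of each member at 2, 6 and 24 h against 0 h: circles are the fit over all 14 libraries ± SE (filled where adjusted p is under 0.05), coloured points the change of mean CPM within each run. E2F5 lies furthest from 0 at all times, and at 2 h E2F1, E2F2, E2F7 and TFDP1 lie on opposite sides of 0 in run 1 and run 2.

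The 2 h change in run 1 minus that in run 2 was negative and called for 7 of 10 members, where the test of the run by time interaction called 28.3% of all transcripts. Run 1 has 1 library at 2 h, which the test assumes to vary like the other groups, so a difference between runs and 1 library that stands apart cannot be told apart. E2F5 had the largest difference, -0.90 ± 0.17 (SE, adjusted p = 0.00328), followed by E2F1 with -0.76 ± 0.22 (adjusted p = 0.0212) and TFDP2 with -0.57 ± 0.09 (adjusted p = 0.00125). E2F1 changed by -0.22 within run 1 and 0.54 within run 2, E2F2 by -0.25 and 0.24, E2F7 by -0.10 and 0.30, and TFDP1 by -0.20 and 0.08. At 6 h no member was called for a difference between run 3 and run 2, where the test called 0.437% of all transcripts. There 1 member, E2F7, had an unadjusted p under 0.05, with no share of all transcripts beside it. For E2F5 the treated means at 2 h were 10.98 CPM in run 1 and 13.2 in run 2, against untreated means of 48.5 in run 1 and 31.2 in run 2.

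Direct tests between times called no member. These tests used the same edgeR fit and called 1.58% of all transcripts for 6 h against 2 h, 4.08% for 24 h against 2 h and 0.175% for 24 h against 6 h. At an unadjusted p under 0.05 the counts of members were 5, 3 and 0, with no share of all transcripts to set beside them. DESeq2 with a run term called 1 member for 6 h against 2 h and 1 for 24 h against 2 h, where it called 4.05% and 6.51% of all transcripts. The late rise of E2F2 therefore rests on its own comparisons with 0 h, since its 6 h against 2 h difference of 0.39 ± 0.11 (SE) had an adjusted p of 0.0887.

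Near promoters the reads were sparser, and of the 10 members E2F5 was the 1 called. At 0 h its promoter-proximal region held 42 to 67 reads per library, or 15.6 and 16.3 CPM in run 1, 15.9 and 20.4 in run 2 and 14.7 in run 3. It held 7.20 CPM in run 1 and 10.3 and 10.6 in run 2 at 2 h, 7.20 and 7.06 in run 2 and 9.21 and 8.62 in run 3 at 6 h, and 8.03 and 7.20 in run 2 at 24 h. Every treated library lay below every untreated one, as in the gene body. The log2 change was -0.88 ± 0.25 (SE, adjusted p = 0.0476) at 2 h, -1.12 ± 0.26 (adjusted p = 0.0245) at 6 h and -1.22 ± 0.32 (adjusted p = 0.0672) at 24 h. In the authors' deposited table E2F5 near its promoter had an adjusted p of 0.168 at 2 h, 0.0288 at 6 h and 0.178 at 24 h. E2F5 was the 1 member called at 2 h and at 6 h, where 4.61% and 2.24% of all transcripts were, and no member was called at 24 h, where 1.41% were. At 24 h 3 members had an unadjusted p under 0.05, with no share of all transcripts beside it. DESeq2 with a run term called none at 24 h, where it called 2.4% of all transcripts. The 2 h call was lost when any of 11 single libraries was left out and the 6 h call when any of 5 was. Scaling promoter-proximal reads by gene-body library sizes moved the median of all transcripts by -0.16, -0.23 and -0.23 at the 3 times. This scaling called no member at 2 or 6 h, where it called 0.341% and 0.681% of all transcripts. E2F5 then had -1.04 (adjusted p = 0.274) at 2 h and -1.38 (adjusted p = 0.0768) at 6 h. With both untreated libraries of run 1 omitted, E2F5 was not called at 2 h (-0.69, adjusted p = 0.176) and was called at 24 h (-1.15, adjusted p = 0.0446), where the test called 4.31% of all transcripts at 2 h, 5.43% at 6 h and 3.77% at 24 h.

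**Figure D4:**
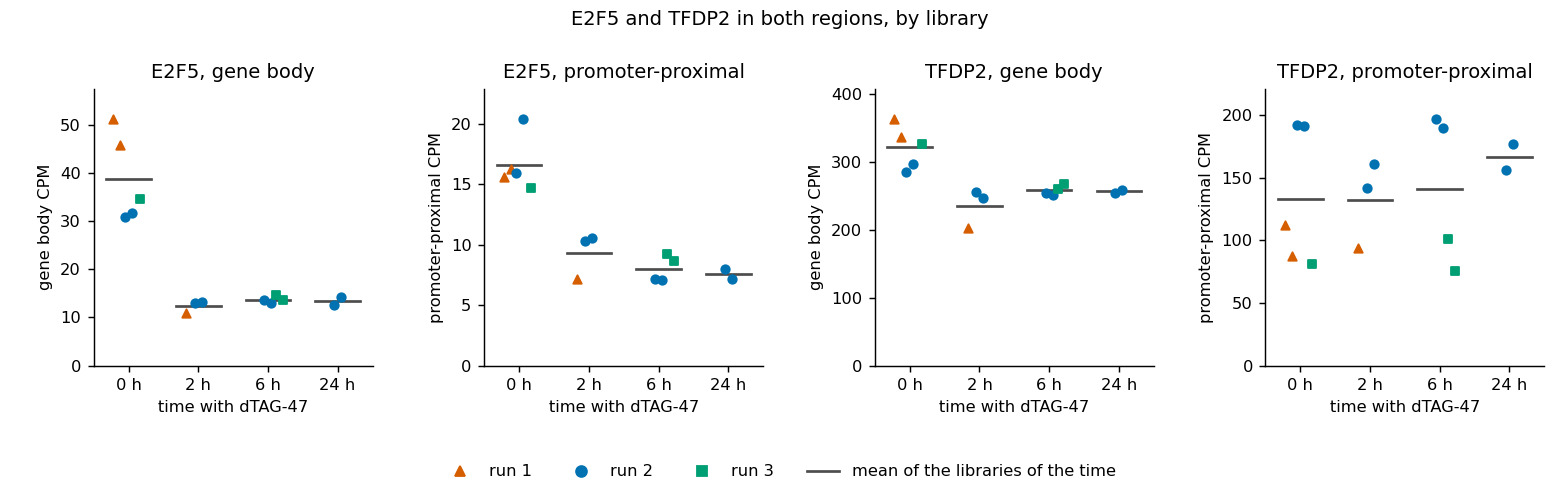
CPM of E2F5 and TFDP2 in gene bodies and near promoters in every library, by time with dTAG-47, coloured by run, with the mean of each time. Near the promoter E2F5 has 7.06 to 10.57 CPM in the treated libraries and 14.73 to 20.45 in the untreated ones, while TFDP2 separates by run rather than by time.

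The other members' promoter-proximal values overlapped the untreated ones, except those of TFDP1 at 6 h. TFDP1 had 7.26 to 13.3 CPM near its promoter at 6 h, against 14.6 to 29.9 at 0 h, with a log2 change of -0.86 ± 0.28 (SE, adjusted p = 0.124). E2F3 near its promoter had 95.4 to 137 CPM at 2 h, against 75.7 to 242 at 0 h, with a log2 change of -0.60 ± 0.21 (adjusted p = 0.0953). E2F8 had 8.61 to 16.8 CPM there at 2 h, against 13.3 to 36.7 at 0 h, with -0.95 ± 0.31 (adjusted p = 0.0825). None of these 3 passed the threshold with all libraries. With both untreated libraries of run 1 omitted, TFDP1 passed at 6 h (-0.95, adjusted p = 0.0229) and E2F8 at 2 h (-1.27, adjusted p = 0.0386). TFDP2, which fell in its gene body, had 94.0 to 161 CPM near its promoter at 2 h, against 81.0 to 192 at 0 h (log2 change -0.23, adjusted p = 0.49). Its untreated values were 192 and 191 CPM in run 2 and 81.0 to 112 in the other runs.

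A direct test of promoter-proximal against gene-body change, by limma on the difference of log2 CPM, called no member at 2, 6 or 24 h, where it called 1.57%, 0.451% and 0.311% of all transcripts. At an unadjusted p under 0.05 the counts of members were 4, 0 and 1, again with no share of all transcripts beside them. With this few promoter-proximal reads, the absence of a call does not show that both regions changed alike. In run 1 E2F5 had 12.8 promoter-proximal reads per 100 gene-body reads at 2 h, against 3.33 and 5.15 at 0 h. In run 2 it had 9.66 and 14.1 at 2 h, against 12.5 and 16.9 at 0 h, so the runs went opposite ways. Over all transcripts this ratio at 2 h was 21.0 in run 1 and 12.7 and 18.3 in run 2. Over all transcripts the same ratio was 10.6 to 25.9 in untreated libraries, with the lowest in run 1 and the highest in run 2, and 12.7 to 21.0 in treated libraries. The part of these library-wide ratios in the promoter-proximal results was not tested.

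Across the 14 libraries some members moved together and others in opposite ways. With each run's mean removed from log2 CPM, the highest Pearson r were 0.938 for E2F5 and TFDP2 and 0.930 for E2F3 and TFDP2. Among lower ones were 0.874 for E2F6 and TFDP2, 0.865 for E2F3 and E2F6 and 0.806 for E2F2 and E2F7. E2F4 went the other way, with -0.878 to TFDP2 and -0.844 to E2F5. These r describe libraries that share the treatment contrast, and no r of typical transcript pairs was set beside them. The transcripts most like E2F5 over the 14 libraries were PRKCQ (r = 0.994), a protein kinase C gene, NEK3 (r = 0.991), a NIMA-related kinase gene, and APP (r = 0.987), the amyloid precursor gene. Their log2 changes at 2 h were -0.72, -1.43 and -0.41. Those most like TFDP2 were MBTD1 (r = 0.989), IVNS1ABP (r = 0.986) and PKP4 (r = 0.985), those most like E2F6 were KDM1A (r = 0.952), NUP214 (r = 0.949) and ERAP1 (r = 0.947), and those most like E2F2 were IRS2 (r = 0.959), ZSWIM4 (r = 0.957) and NLRP3 (r = 0.946). IRS2, ZSWIM4 and NLRP3 changed by 0.65, 0.50 and 0.70 at 6 h, beside 0.45 of E2F2.

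Genes that E2F proteins are known to drive for DNA replication rose in their gene bodies where they were called with all libraries, in counts near the background at 2 and 24 h. Of 40 such genes, all of them tested, 10 rose and 0 fell at 2 h, 11 rose and 0 fell at 6 h and 6 rose and 0 fell at 24 h. Among all transcripts 19.7%, 13.5% and 10.8% rose and 18.9%, 13.4% and 9.08% fell at these times. The 10 of 40 that rose at 2 h and the 6 of 40 at 24 h are therefore near the background, and the 11 of 40 at 6 h is above it. Without a run term 5 rose at 2 h, where 6% of all transcripts did. The list's median log2 change was 0.10, 0.15 and 0.07, beside 0.01 at each time over all transcripts. Without the untreated libraries of run 1, 23, 25 and 11 of the 40 rose and 1, 2 and 0 fell, where 11.5%, 19.3% and 15.4% of all transcripts rose and 13.2%, 18.4% and 14.2% fell. Without the 2 h library of run 1, 18, 22 and 10 rose, where 8.25%, 16.2% and 13.1% of all transcripts did, and without the first 24 h library 3 rose at 24 h, where 3.38% did. Near promoters 0 of the 40 rose at any time, and 1, 0 and 2 fell at 2, 6 and 24 h. Of all transcripts 4.61%, 2.24% and 1.41% were called there in either direction. With so few calls near promoters, these counts do not show a difference between the regions. The promoter-proximal median of the list was -0.11, 0.01 and -0.13.

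TK1, the S phase thymidine kinase, changed by 0.60 ± 0.09 (SE, adjusted p = 3.3e-04) at 2 h, 0.75 ± 0.09 (8.5e-05) at 6 h and 0.64 ± 0.11 (0.00153) at 24 h, with adjusted p in brackets. POLA2, a subunit of the polymerase alpha-primase complex, rose by 0.40, 0.50 and 0.46 (adjusted p = 2.3e-04, 4.5e-05 and 6.1e-04). BRCA1, a homologous recombination gene, rose by 0.31, 0.37 and 0.27 (adjusted p up to 0.0108). PRIM1, the primase catalytic subunit, did not pass at 2 h (0.13, adjusted p = 0.194) and rose by 0.45 at 6 h and 0.52 at 24 h (adjusted p = 9.5e-04 and 0.00207).

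Of 18 listed G1/S cyclins, kinases and inhibitors 14 were tested, and 3 rose and 4 fell at 2 h, 5 rose and 2 fell at 6 h, and 5 rose and 0 fell at 24 h. With 19.7%, 13.5% and 10.8% of all transcripts rising and 18.9%, 13.4% and 9.08% falling, the risers at 2 h and the fallers at 6 h are near the background. CCNE2, a cyclin E that E2F proteins are known to induce, rose by 0.50, 0.84 and 0.77 at 2, 6 and 24 h (adjusted p = 0.0109, 8.6e-04 and 0.00639). CCND1, the cyclin D1 gene, changed by -0.57, -0.81 and -0.51 (adjusted p = 0.0167, 0.00348 and 0.108). CDKN1B, which encodes the inhibitor p27, fell by 0.54 at 2 h and 0.32 at 6 h (adjusted p = 0.00106 and 0.0227), and CDK6 fell by 0.42 at 2 h (adjusted p = 0.00115). CDKN2D, which encodes the inhibitor p19, was picked after its values were seen. Its 2 h call held under 10 of 23 alternatives and was lost without the untreated libraries of run 1 (0.99, adjusted p = 0.119). TK1 and CCNE2 had 24 alternatives, and CDKN2D was not tested in all of them. With all libraries CDKN2D rose by 0.81 ± 0.29 at 2 h, 1.43 ± 0.32 at 6 h and 1.77 ± 0.36 at 24 h (log2 ± SE, adjusted p = 0.0398, 0.00556 and 0.00489). Left-out libraries moved these counts: without the first 24 h library 0 rose at 24 h (3.38% of all transcripts), and without the second 6 h library of run 2 1 rose at 2 h (17.6%) and 3 rose and 1 fell at 6 h (7.49% and 7.5%).

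Of 11 listed pocket protein and MuvB/DREAM genes 10 were tested, and 2 rose at 2 h, 3 at 6 h and 2 at 24 h, while none fell. The share of all transcripts that rose was 19.7%, 13.5% and 10.8%, so the 2 of 10 at 2 h is at the background, and with 10 genes the counts at 6 and 24 h are 1 or 2 genes above it. Without the first 24 h library 0 rose at 24 h, where 3.38% of all transcripts did, and without the untreated library of run 3 1 rose at 6 h, where 7.68% did. LIN37, a MuvB core subunit, rose by 1.03, 0.66 and 0.74 (adjusted p = 5.8e-04, 0.0109 and 0.0218) and FOXM1, a mitotic gene activator, by 0.33, 0.37 and 0.60 (adjusted p = 0.0186, 0.0156 and 0.00416). RBL1, which encodes p107, rose at 6 h alone (0.28, adjusted p = 0.0406), without a test of that against the other times. When the untreated libraries of run 1 were omitted, FOXM1 was not called at 2 h (0.16, adjusted p = 0.229) and RBL1 was called at all 3 times (0.37, 0.35 and 0.27). RB1 was not called (-0.22, -0.02 and -0.13; adjusted p from 0.0549 to 0.881).

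Of the 12 listed PRC1.6 partners of E2F6, 1 rose and 6 fell at 2 h, 1 rose and 5 fell at 6 h, and 1 rose and 2 fell at 24 h. Among all transcripts 18.9%, 13.4% and 9.08% fell at these times, so the fallers at 2 and 6 h exceed the background share, and the 2 of 12 at 24 h do so by about 1 gene. The list's median log2 change was -0.20, -0.20 and -0.15. Without the untreated library of run 3, or without the first 6 h library of run 2, 1 fell at 6 h, where 7.95% and 7.54% of all transcripts did. Without either 24 h library none fell at 24 h, where 2.41% and 2.79% did. The riser was RING1, a RING subunit of Polycomb complexes, at all 3 times (0.57 at each; adjusted p = 0.00312, 0.00575 and 0.0194). RNF2, the other RING subunit, fell by 0.58, 0.36 and 0.37 (adjusted p = 7.2e-04, 0.0123 and 0.0381). MGA, the DNA-binding scaffold of the complex, fell by 0.30 at 2 h and 0.22 at 6 h (adjusted p = 0.00133 and 0.0105). CBX3, which encodes HP1 gamma, fell by 0.44 and 0.29 at the same times (adjusted p = 0.00292 and 0.0344), and YAF2 fell by 0.65 at 2 h (adjusted p = 0.00125).

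**Figure D5:**
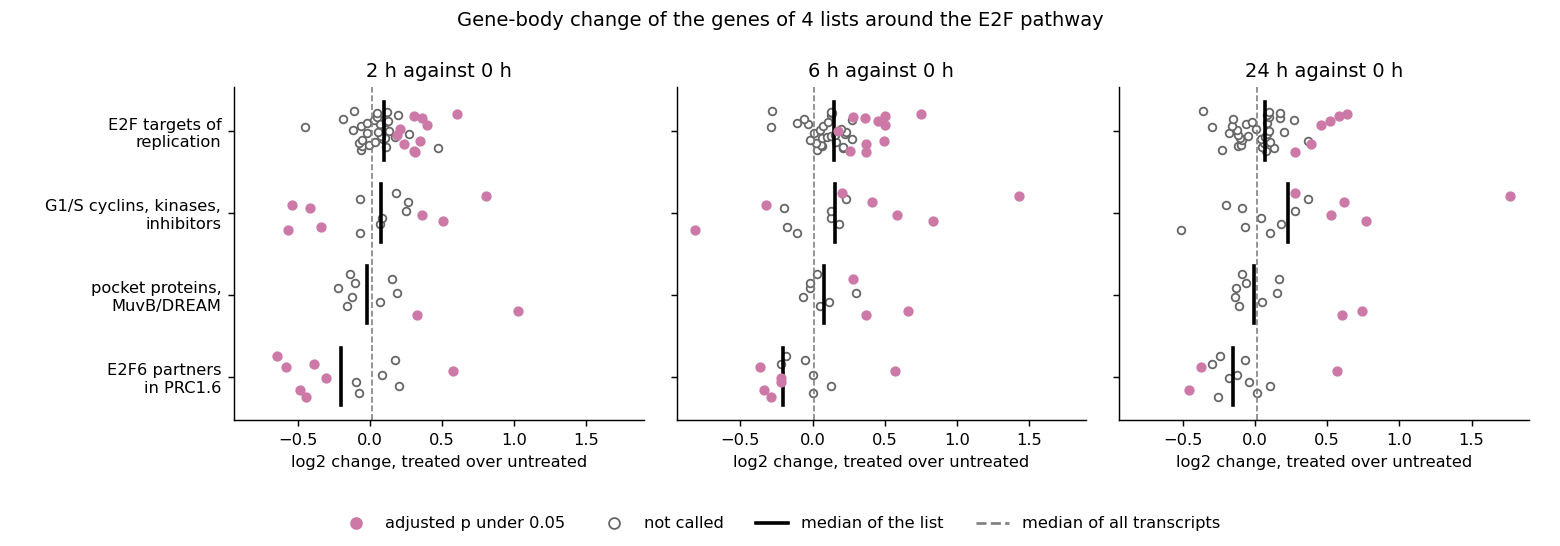
Log2 change of gene-body reads at 2, 6 and 24 h against 0 h for each tested gene of 4 lists around the E2F pathway, filled where adjusted p is under 0.05, with each list's median (bar) and that of all transcripts (dashed). All called replication genes lie right of 0, and most called PRC1.6 partners left of it, RING1 apart.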

How the data were processed

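The libraries are PRO-seq of tagged Kasumi-1 cells. Tools named for them, per the submitters' processing notes, are DESeq2, HOMER, SAMtools, Bowtie2 2.2.2 and Trimmomatic 0.32, with the build hg19. The authors deposited raw read counts per transcript for gene bodies and promoter-proximal regions, with their own log2 fold changes and adjusted p-values, as deposited tables. Neither the counting windows nor the strand counted is recorded in the labels or file headers. Values were recomputed from the counts, and the 84 deposited normalized columns were not used.

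Counts were normalized by TMM and tested with edgeR 4.0.16 (quasi-likelihood, R 4.3.3) with time and run as terms, over all 14 libraries and 10304 gene-body or 9980 promoter-proximal transcripts, with Benjamini-Hochberg adjustment and a threshold of 0.05. Runs were read from codes in the column names that no label explains. The difference between regions was tested with limma 3.58.1 on log2 CPM with a prior count of 2. Alternatives were DESeq2 1.42.0, other scalings and filters, other sample sets and left-out libraries. Scripts were tested on simulated data. The member genes, the gene lists and the run term were chosen with earlier results of these data known. List genes named were those with the smallest adjusted p, up to 4 a list, and genes needed to describe a count. CDKN2D was named besides these, after its values were seen. DESeq2 with a run term gave the authors' deposited gene-body log2 values (largest difference 1.48e-08), but not their promoter-proximal ones.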

Additional observations from a re-analysis of the deposited data

Results flagged for a closer look

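In 7 members the 2 h change of gene-body reads differed between runs by the interaction test, as run 1 minus run 2 on the log2 scale. The difference was -0.896 for E2F5, -0.7564 for E2F1, -0.5739 for TFDP2, -0.4831 for E2F2, -0.4057 for E2F7, -0.4023 for E2F8 and -0.2993 for E2F3. Run 1 has 1 library at 2 h, which the test assumes to vary like the other groups.

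In 4 of 40 groups of 4 or 5 libraries 1 library lay far from the others, where chance gives about 1 in 20 groups. The first 6 h library of run 3 had 93.91 CPM in the gene body of E2F1, where the next highest had 79.8. The same library was lowest near the promoters of E2F8, with 10.89 CPM (next 17.77), and of TFDP1, with 7.258 CPM (next 12.35). Near the promoter of E2F5 the second untreated library of run 2 was highest with 20.45 CPM, where the next had 16.27.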

How the results depend on the processing

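Of 1469 values of members recomputed under alternatives, 1182 planned and 95 added ones kept their direction and side of the threshold. The cause of the changes below was not tested.

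The column names carry letters in place of the labels' replicate numbers, and the labels do not say that a letter pairs libraries. Within run 2 the deviations of same-letter libraries from the mean of their time correlated at -0.0658 to 0.163 over the 6 pairs of times, across 9690 transcripts, so the letters were not taken as pairs. A fit with a replicate block by letter within run, added after seeing the data, called 3 members at 2 h, 4 at 6 h and 2 at 24 h in gene bodies, where it called 27.6%, 22.4% and 16.7% of all transcripts, and 1, 2 and 0 near promoters (4.56%, 2.47% and 1.94%). Near promoters at 2 h that was E2F8 (-1.23, adjusted p = 0.0117) in place of E2F5 (-0.88, adjusted p = 0.0638), and at 6 h TFDP1 joined E2F5. E2F3 and E2F6 at 2 h and E2F6 and TFDP1 at 6 h passed no longer in gene bodies, while the calls of E2F5 there were kept. Near promoters at 2 h E2F4 was -0.1274 and E2F6 0.161 under this block.

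Members called in gene bodies at 2 h numbered 2 without a run term (13.2% of all transcripts), 3 with only the compared groups (18.6%) and 3 at a threshold of 0.01 (19.9%). With 1 library left out they numbered 3 to 6, where 1922 to 4265 transcripts were called. At 6 h they were 3 at 0.01 (12.6%) and 3 to 7 with 1 left out (1545 to 3329 transcripts). At 24 h they were 4 by DESeq2 (22.4%), 5 without the untreated libraries of run 1 (29.6%), 8 in run 2 alone (43.2%) and 1 at 0.01 (8.19%). With 1 left out they were 1 to 4 at 24 h (596 to 2551 transcripts). For 6 h against 2 h they were 1 by DESeq2 (4.05%), 1 without those libraries (4.21%) and 3 in run 2 alone (16.6%). For 24 h against 2 h they were 1, 2 and 4 in the same settings (6.51%, 9.96% and 22.4%), and 0 to 1 with 1 left out (67 to 744 transcripts).

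Near promoters 0 members were called at 2 h with gene-body library sizes (0.341% of all transcripts), without a run term (0.0601%), with only the compared groups (2.02%) and at 0.01 (0.641%). A mean count of 100 (4.98%), a filter that leaves E2F5 untested, called 0 members too. In run 2 alone 2 were (17.2% of all transcripts), and 0 to 2 with 1 left out (137 to 724 transcripts). At 6 h 0 were called with gene-body sizes (0.681%), a mean count of 100 (1.55%), only the compared groups (1.35%) and 0.01 (0.501%). There 2 were called without the untreated libraries of run 1 (5.43%), 3 in run 2 alone (9.59%) and 0 to 2 with 1 left out (27 to 381 transcripts). At 24 h these were 1 (3.77%), 4 (14.6%) and 0 to 1 (3 to 279 transcripts). The difference between regions called 3 at 2 h and 3 at 24 h in run 2 alone (11.7% and 10.3% of all transcripts). Without the untreated libraries of run 1 it called 1 at 24 h (1.94%).

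None of the values that changed sign had been called. Without a run term E2F2 near its promoter was -0.3711 at 6 h, TFDP2 near its promoter 0.3242 at 24 h and E2F8 in its gene body -0.06469 at 6 h. E2F4 near its promoter at 2 h was -0.00554 with DESeq2 size factors, -0.006644 by DESeq2, -0.1463 with gene-body sizes, -0.07728 without a run term, -0.1346 without the untreated libraries of run 1 and -0.06251 in run 2 alone. With gene-body sizes E2F4 was -0.003595 at 6 h, TFDP2 -0.1555 at 6 h and E2F6 -0.03638 at 24 h near promoters. E2F6 near its promoter at 2 h was 0.02108 without the untreated libraries of run 1, 0.01651 with only the compared groups and 0.08141 in run 2 alone. RB1 in its gene body at 6 h was 0.04055, 0.03879 and 0.08276 in these settings. TFDP1 in its gene body at 2 h was 0.1012 without the untreated libraries of run 1 and 0.07619 in run 2 alone.

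With 1 library left out the lowest and highest log2 changes in gene bodies were -0.004314 and 0.2396 for E2F2 and -0.1004 and 0.09811 for TFDP1 at 2 h, and -0.05935 and 0.0387 for RB1 at 6 h. Near promoters at 2 h they were -0.1558 and 0.1588 for E2F4, -0.1741 and 0.1395 for E2F6, -0.3657 and 0.07354 for E2F7, and -0.4401 and 0.03089 for TFDP1. At 6 h they were -0.2139 and 0.01144 for E2F1. At 24 h they were -0.3251 and 0.7337 for E2F2, -0.2154 and 0.01153 for E2F4, -0.3403 and 0.6182 for E2F6, -0.8992 and 0.2048 for E2F7, and -0.1699 and 0.2036 for E2F8.

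Over all transcripts the gene-body calls ranged over these alternatives from 1365 to 4265 at 2 h, against 3979 reported, from 1302 to 4383 at 6 h (2762) and from 596 to 4447 at 24 h (2045). Near promoters they ranged from 6 to 1682 at 2 h (460), from 27 to 938 at 6 h (224) and from 3 to 1430 at 24 h (141). Promoter-proximal depth was 1667950 to 7171601 reads, and members there held as few as 10 reads in a library.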
